A study of Mus musculus with 4 samples.

Results

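The Prader-Willi and Angelman domain of mouse chromosome 7 was followed through 9 genes, Atp10a, Ube3a, Snhg14, Gm38393, Snrpn, Ndn, Magel2, Mkrn3 and Peg12. They were taken by symbol from allele-specific RNA-seq tables of 46320 gene identifiers, and all 9 were found. Also taken were the regions of allelic DNA methylation listed in a 4 Mb window of chromosome 7 that holds these genes, which were 9 of the 1613 regions listed for the genome. The tissue was prefrontal cortex of female F1 mice from a cross of C57BL6J with Spretus, 14 weeks old, and the Xist mutation was on the maternal allele. All libraries shared that genotype. RNA and DNA were each isolated from tissue pooled over 2 individuals of separate litters. There were 2 RNA libraries and 2 libraries of MethylC-seq, a bisulfite sequencing of single cytosines, and the comparison was between the Spretus and the C57 allele of the same tissue. The strain label was read as mother first, which makes Spretus the paternal and C57 the maternal allele. All libraries came from a single direction of the cross, so an effect of the parent and an effect of the strain cannot be told apart in any result given here.

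Genomic imprinting is the expression of a gene from the copy of one parent only, set by methylation laid down in the germ line. In this domain an imprinting centre at the first exon of Snurf and Snrpn is methylated on the maternal copy. On the unmethylated paternal copy it starts a very long noncoding transcript, Snhg14, which hosts clusters of small nucleolar RNAs and runs against Ube3a. Ube3a encodes a ubiquitin ligase and is expressed mainly from the maternal copy in neurons, while other cells use both copies. In people, loss of the paternal genes underlies Prader-Willi syndrome and loss of maternal UBE3A underlies Angelman syndrome.

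Allele-assigned reads numbered 4768237 in library 1 and 1291903 in library 2, a 3.69-fold difference in depth. The labels do not say whether these libraries had separate animals behind them, so p-values cover only the variation from library to library, possibly technical. Reads were counted per gene and are not corrected for gene length. Intervals on shares are exact Clopper-Pearson 95% intervals and, like the limits for counts of 0, cover counting error only. Xist, the targeted gene, had 2158 Spretus against 31 C57 reads in library 1, and 795 Spretus against 9 C57 reads in library 2. Of 5 markers of cortical layers, 4 had an FPKM of at least 1 in both libraries, and Foxp2 was at 4.19 and 0.569 in libraries 1 and 2. So did 6 of 6 neuronal, 4 of 4 astrocyte, 3 of 4 oligodendrocyte and 3 of 3 microglial markers. The 3 of 3 endothelial and 3 of 3 blood markers also reached it, so the tissue held vessels and blood. Of 6 hypothalamic markers, 0 reached an FPKM of 1 in either library. The highest value was 0.437 in library 1 and 0.105 in library 2. Of 3 choroid plexus, 3 cerebellar and 3 olfactory bulb markers, 0 of each set reached 1 in both libraries. In library 1 alone, Ttr of the choroid plexus, Pcp2 of the cerebellum and Cdhr1 and Doc2g of the olfactory bulb exceeded 1.

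The domain split into Spretus reads on one side and C57 reads on the other. Snhg14, Gm38393, Snrpn and Ndn gave 98.5% to 99.7% of their reads from Spretus, Ube3a gave 12.8%, and Atp10a gave 51.2%. Magel2, Mkrn3 and Peg12 gave a handful of reads, all from Spretus. Of the 6 genes with at least 10 reads in each library, 4 were called toward Spretus, where 2.32% of the 11981 tested genes were called in that direction. These 4 are not all separate, since Gm38393 overlaps Snrpn and Snhg14. Ube3a was called toward C57, where the share over all tested genes was 6.23%, or 3.04% over the 11584 autosomal ones. A gene was called at an adjusted p of at most 0.05 in edgeR's quasi-likelihood test on raw counts, with Benjamini-Hochberg adjustment over all tested genes. That test did not pair the 2 allele columns of a library. With the library as a block, 4 members were again called toward Spretus and 1 toward C57. The block fit called 10.8% and 14.2% of all tested genes in these directions.

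**Figure D1:**
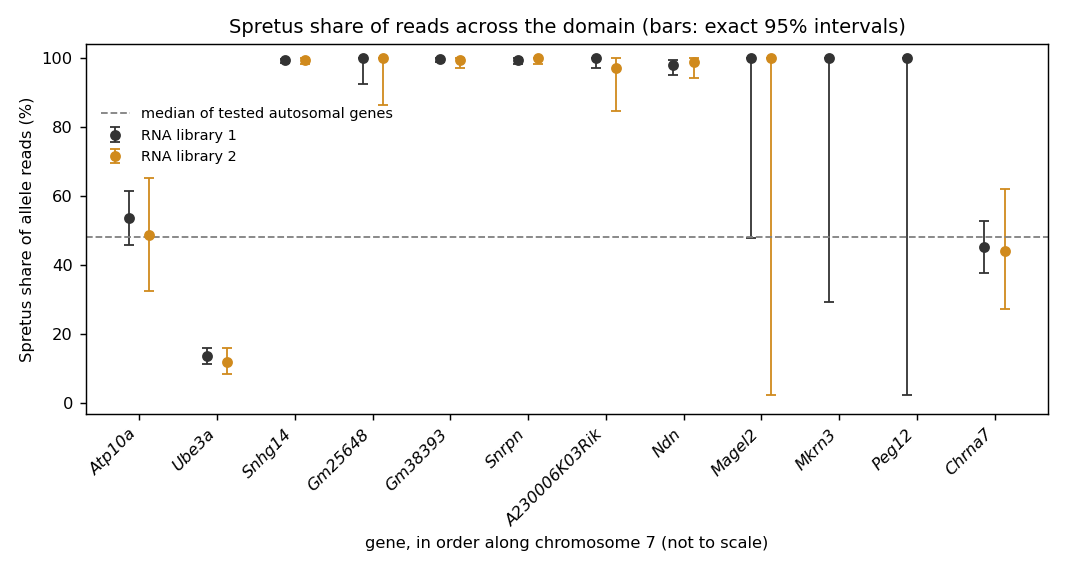
Spretus share of allele-assigned reads (percent, vertical axis) for genes in their order along chromosome 7, with 1 point per RNA library and exact 95% intervals as bars. Ube3a lies at 13.6% and 11.9%, the genes from Snhg14 to Ndn lie above 97%, and Atp10a and Chrna7 lie near the dashed autosomal median of 48.1%.

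Ube3a (mm10, chromosome 7, 59228750 to 59311536) was the gene of the domain that was called toward C57. It had 134 Spretus against 851 C57 reads in library 1, and 36 Spretus against 266 C57 reads in library 2. C57 reads were thus the majority in both libraries, and Spretus reads were present in both. The Spretus share was 13.6% (11.5% to 15.9%) in library 1 and 11.9% (8.49% to 16.1%) in library 2, or 12.8% ± 1.19 (SD, n = 2). The log2 ratio of Spretus over C57 was -2.66 (SE 0.21, adjusted p = 3.39e-06 by edgeR). Among the 11584 autosomal genes tested it ranked 66th toward C57, so stronger C57 ratios occurred elsewhere in the genome. Outside the domain, the autosomal genes with the nearest ratios were A430046D13Rik, Efcab1 and Myl4, by the absolute difference of log2 ratios over 2 libraries. A430046D13Rik had 15 Spretus against 80 C57 reads in library 1, and 1 Spretus against 26 C57 reads in library 2. Efcab1 had 3 Spretus against 25 C57 reads in library 1, and 2 Spretus against 11 C57 reads in library 2. Myl4 had 14 Spretus against 97 C57 reads in library 1, and 3 Spretus against 21 C57 reads in library 2.

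The Spretus reads of Ube3a cannot be assigned to a source in these tables. In bulk tissue, fewer cells of a type and less RNA per cell cannot be told apart, and the tissue held glia beside neurons. The median FPKM was 341 and 60.9 over neuronal markers in libraries 1 and 2, 21.9 and 3.10 over astrocyte markers, and 101 and 10.9 over oligodendrocyte markers. Their part in the Ube3a share was not tested. Snhg14 runs over Ube3a on the other strand. In the deposited gene spans they overlapped by 3613 bp, and in RefSeq by 38101 bp, which is 46.4% of Ube3a. Counting may or may not have used strand, which the labels do not say, and the part of Snhg14 reads in the Ube3a count was not tested.

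The start of Ube3a is shown because it is the CpG-richest window among the listed genes and lies in no listed region of allelic methylation. Each promoter window printed here is RefSeq sequence of GRCm38.p6, the assembly behind mm10. It runs 5′ to 3′ on the gene's strand from 250 bases before the start site to 50 after it, with CpG dinucleotides in capitals. The window of Ube3a is chr7:59228500-59228799 on the plus strand.
Ube3a: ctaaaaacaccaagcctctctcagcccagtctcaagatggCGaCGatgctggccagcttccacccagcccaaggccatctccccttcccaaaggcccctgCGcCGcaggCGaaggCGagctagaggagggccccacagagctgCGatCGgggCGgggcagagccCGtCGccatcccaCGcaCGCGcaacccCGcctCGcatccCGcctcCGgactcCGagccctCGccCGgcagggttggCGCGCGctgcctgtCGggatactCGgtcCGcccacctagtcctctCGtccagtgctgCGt
It holds 29 CpG, more than 87.1% of the 32851 promoter windows of that length, whose median is 7.

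Snhg14, the noncoding host transcript of the snoRNA clusters, was listed at 9 loci between 59307924 and 59975759 under a single pair of counts, so its reads cannot be divided among them. It had 1299 Spretus against 10 C57 reads in library 1, and 404 Spretus against 2 C57 reads in library 2. Nearly all reads were from Spretus in both libraries, at 99.4% ± 0.192 (SD, n = 2). The log2 ratio was 7.34 (SE 0.34, adjusted p = 8.38e-08 by edgeR). The level per length, which does have a value for each locus, was above 0 at 6 of the 9 loci and listed at 0 at 3. At the locus that overlaps the end of Ube3a (59307924 to 59324149) the FPKM was 14.9 in library 1 and 3.05 in library 2. Near Snrpn (59937371 to 59975759) it was 29.7 and 4.54, the highest of the 9 loci in each library. Between them, the span from 59619158 to 59874749 stood at 25.2 and 4.04. FPKM was not split by allele, and library 1 ran higher throughout, with a median ratio of 5.62 over library 2 for 8978 loci.

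The autosomal genes outside the domain with a log2 ratio nearest to that of Snhg14 were Aldh3b3, Gm19587 and Hspd1-ps3. Aldh3b3 had 254 Spretus against 2 C57 reads in library 1, and 53 Spretus against 0 C57 reads in library 2. Gm19587 had 29 and 13 Spretus reads in libraries 1 and 2, and Hspd1-ps3 had 33 and 10, each against 0 C57 reads in both.

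Small RNA genes inside the same stretch were also read from Spretus. Of 238 other genes that overlap the same 4 Mb window, 24 had allele-assigned reads and 214 had none. The 24 summed to 404 Spretus against 2 C57 reads, and 22 of them had Spretus reads only. Among these, 7 genes of small nucleolar RNAs, which guide the modification of other RNAs, held 125 Spretus against 0 C57 reads. The snoRNA gene Gm25648 (59347681 to 59347759) had 46 and 25 Spretus reads in libraries 1 and 2, against 0 C57 reads in both. Against a limit of 3 reads over both libraries its Spretus reads were at least 23.7-fold higher, and it was called toward Spretus (adjusted p = 2.2e-04 by edgeR). A fragment of the host transcript and a mature snoRNA give the same count, and these cannot be told apart here.

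Snrpn (59982495 to 60140219), which encodes a protein of the splicing machinery in the brain, had 472 Spretus against 3 C57 reads in library 1. In library 2 it had 205 Spretus against 0 C57 reads, which allows a C57 share of up to 1.46%. The mean Spretus share was 99.7% ± 0.447 (SD, n = 2). It was called toward Spretus, but its log2 ratio of 8.03 rests on so few C57 reads that it moved to 10.74 without library 1 and to 7.36 without library 2. Gm38393 (59974149 to 60005064), a gene model that overlaps 22570 bp of Snrpn and 1611 bp of Snhg14, had 595 Spretus against 2 C57 reads in library 1. In library 2 it had 194 Spretus against 1 C57 read. Its log2 ratio was 8.14 (SE 0.36, adjusted p = 8.38e-08 by edgeR), and 7.54 without library 1. Reads in the overlap cannot be divided between Snrpn and Gm38393.

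Per length, Snrpn was the highest of the listed genes, at an FPKM of 230 in library 1 and 44.3 in library 2, above 99.5% of the loci in each. Snurf, an upstream reading frame on the same transcript, lies wholly inside Snrpn and Gm38393 and stood at 1386 and 279. It had 0 allele-assigned reads in both libraries, so its level carries no allelic information. Ube3a followed Snrpn with 52.0 and 12.4, and Ndn with 56.7 and 10.4, and these neighbours changed order between the libraries. Gm38393 was at 25.8 and 4.67, and Atp10a at 2.26 and 0.359.

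**Figure D2:**
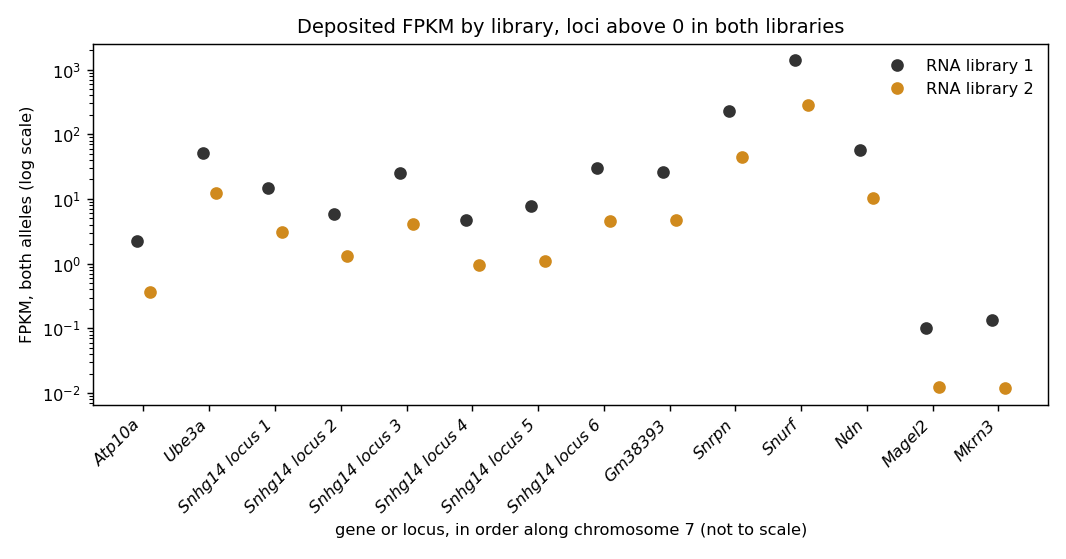
FPKM per listed locus (log scale) in RNA library 1 and RNA library 2, for the genes of the domain in chromosomal order. Snrpn at 230 and 44.3 and Snurf at 1386 and 279 stand highest, Magel2 and Mkrn3 stand lowest, and loci at 0 in either library are left out.

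Ndn (62348277 to 62349928) encodes necdin, a MAGE family protein of postmitotic neurons, and has no intron. It had 199 Spretus against 4 C57 reads in library 1, and 90 Spretus against 1 C57 read in library 2. Spretus reads made up nearly all of both, at 98.5% ± 0.616 (SD, n = 2). The log2 ratio was 6.08 (SE 0.47, adjusted p = 2.26e-06 by edgeR), the lowest of the 4 genes called toward Spretus.

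Its neighbours Magel2, Mkrn3 and Peg12 were too low to test. Magel2, a MAGE family regulator of protein recycling with known roles in the hypothalamus, had 5 and 1 Spretus reads in libraries 1 and 2, against 0 C57 reads in both. The 6 of 6 reads give an interval on the Spretus share of 54.1% to 100%. Mkrn3, a makorin ring finger gene tied in people to the timing of puberty, had 3 and 0 Spretus reads and 0 C57 reads. Its interval was 29.2% to 100%, which includes equal use of both alleles. Peg12, a relative of the Frat genes of Wnt signalling, had 1 Spretus read in library 1 and none in library 2, and 0 C57 reads in both. Their FPKM values were 0.10 and 0.0125 for Magel2, 0.136 and 0.0119 for Mkrn3, and 0.0131 and 0 for Peg12. No allelic preference of Mkrn3 or Peg12 was detectable at this depth.

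Atp10a (58658202 to 58829426), a phospholipid flippase gene beyond Ube3a, had 87 Spretus against 75 C57 reads in library 1, and 19 Spretus against 20 C57 reads in library 2. The majority allele differed between the libraries. The Spretus share was 53.7% (45.7% to 61.6%) in library 1 and 48.7% (32.4% to 65.2%) in library 2. The log2 ratio of 0.26 (SE 0.25) was not called (adjusted p = 0.703 by edgeR). The intervals exclude a share as low as that of Ube3a.

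Beyond the domain the reads were close to even. Chrna7, a nicotinic receptor subunit gene and the nearest tested gene on the Peg12 side, had 80 Spretus against 97 C57 reads in library 1, and 15 Spretus against 19 C57 reads in library 2. It was not called (adjusted p = 0.863 by edgeR). Of 20 flanking protein-coding genes listed for this purpose, 18 were tested. Of these, 0 were called by edgeR's quasi-likelihood test, 0 had an unadjusted p under 0.05 and 0 were called by DESeq2. With the library as a block 0 were called and 2 had an unadjusted p under 0.05. Over all tested genes edgeR called 8.55% and DESeq2 5.41% in either direction. The Spretus shares of the 18 flanking genes ran between 38.0% and 56.5%, with a median log2 ratio of -0.04 beside 0.01 over all tested genes. Herc2, a ubiquitin ligase gene whose product binds that of Ube3a, had 1611 Spretus against 1893 C57 reads in library 1, and 410 Spretus against 479 C57 reads in library 2. Apba2 had 631 Spretus against 704 C57 reads in library 1, and 204 Spretus against 217 C57 reads in library 2. Klf13 had 393 Spretus against 456 C57 reads in library 1, and 83 Spretus against 125 C57 reads in library 2. The autosomal median share was 48.1%, and its quartiles were 43.9% and 51.8%.

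**Figure D3:**
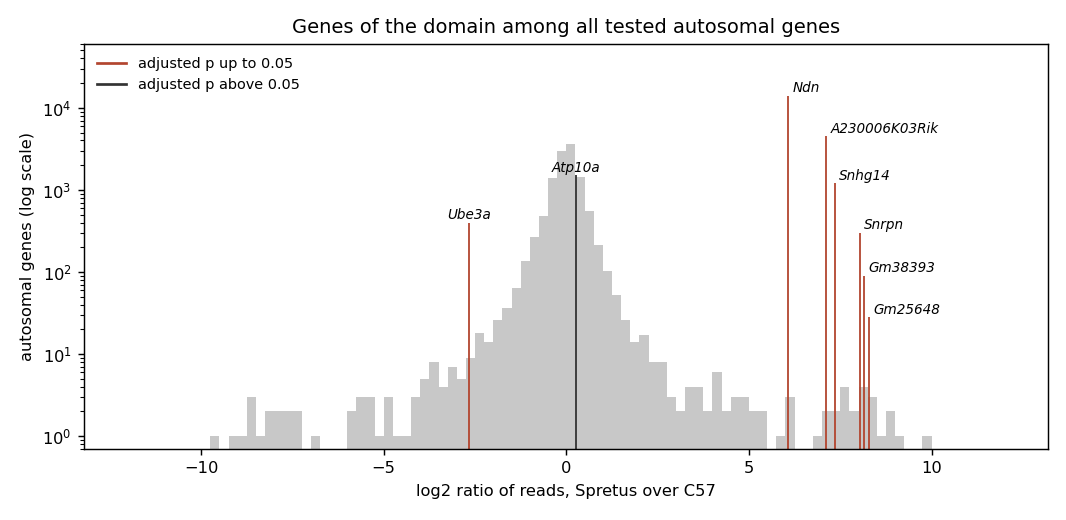
Log2 ratio of Spretus over C57 reads (horizontal axis) for all 11584 tested autosomal genes as a histogram with a log count axis, with vertical lines at the tested genes of the domain. Ube3a lies at -2.66, Atp10a at 0.26 inside the main peak, and the other 6 lines between 6.08 and 8.29, where autosomal genes are few.

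Against the rest of the autosomes, the Spretus genes of the domain were near the end of the distribution. Ranked by log2 ratio toward Spretus, Gm25648 was 8th, Gm38393 10th, Snrpn 12th, Snhg14 20th, A230006K03Rik 22nd and Ndn 26th of 11584. Of the 40 autosomal genes with a mean Spretus share above 95%, 6 lay in the domain. These 6 are not all separate, since Gm38393 overlaps Snrpn and Snhg14, and Gm25648 lies between listed loci of Snhg14. The rank of Gm25648, which has 0 C57 reads, depends on the prior count of the test.

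Spretus reads also covered the gene-poor stretch between Snrpn and Ndn. A230006K03Rik (61127996 to 61311721), a long noncoding RNA gene there, had 127 Spretus against 0 C57 reads in library 1, and 33 Spretus against 1 C57 read in library 2. Both libraries were almost wholly Spretus, at 98.5% ± 2.08 (SD, n = 2). The log2 ratio was 7.11 (SE 0.61, adjusted p = 5.71e-06 by edgeR), and it was 4.99 without library 1 and 10.05 without library 2. Gm9801, nearer to Ndn, had 15 Spretus against 1 C57 read in library 1, and 3 Spretus against 0 C57 reads in library 2.

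A cluster of miR-344 genes lies in the same stretch. Of its 13 hairpins in RefSeq, 5 had reads, with 36 from Spretus and 0 from C57 in all. Mir344g had 15 and 5 Spretus reads in libraries 1 and 2. Reads of such libraries come from longer precursors and say nothing of mature microRNA. The seed GUCAGGC, bases 2 to 8 of the mature strand, was shared by 6 mature names from 7 loci, of which 3 had reads. Mir344f and Mir344h-2 also had reads and differ in the seed of their 5′ arms, which is AGGCUUC in Mir344h-2, not shown. The 5′ arms of the 3 loci with reads are given in RefSeq sequence with the seed in capitals, beside that of Mir344f.
miR-344-5p: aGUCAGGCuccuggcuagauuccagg
miR-344b-5p: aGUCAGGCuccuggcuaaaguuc
miR-344g-5p: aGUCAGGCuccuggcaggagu
miR-344f-5p: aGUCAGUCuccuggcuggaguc

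The 9 listed methylation regions were all lower on the Spretus allele, the direction of 73.4% of the 1006 listed autosomal regions. Levels are the authors' methylation fractions, from 0 to 1, of a cytosine context that is not stated, and come without coverage or values per library, so they have no error and no test. The median level was 0.117 on Spretus and 0.790 on C57. The regions were long for this list. Their median length was 880 bp beside 77.5 bp over all autosomal regions, and 8 of the 9 reached 500 bp beside 125 of 1006. The nearest listed regions outside lay 4.02 Mb below and 1.34 Mb above them, with levels of 0.778 on Spretus and 0.0755 on C57 below, and 0.542 on Spretus and 0.985 on C57 above. A stretch that is not listed has no known level here.

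**Figure D4:**
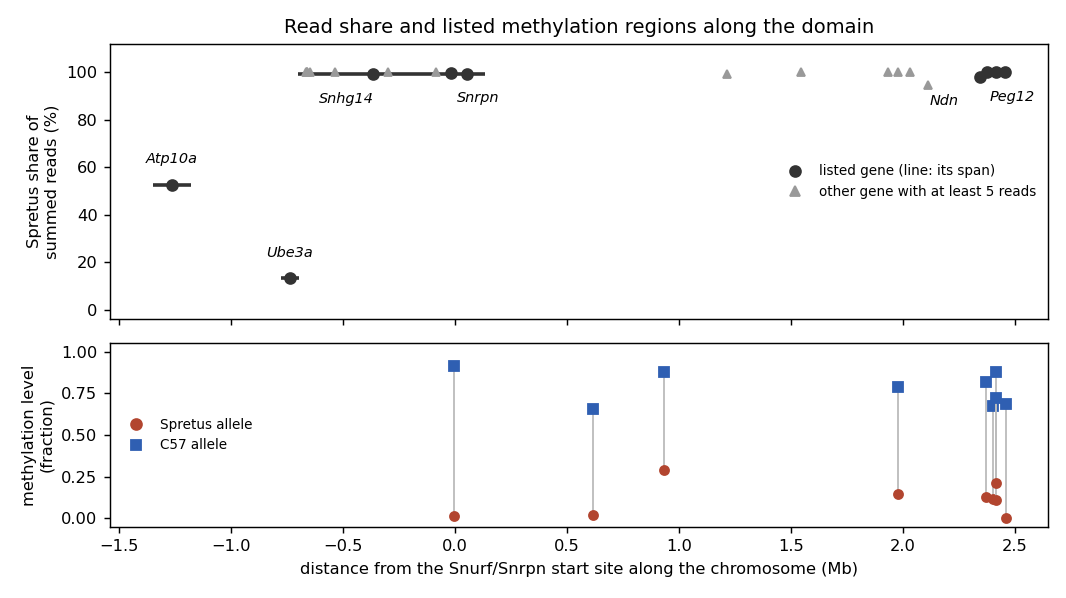
Upper panel, Spretus share of reads summed over libraries (percent) for genes of the domain, and lower panel, methylation level of each allele (fraction) for the 9 listed regions, both against distance from the Snurf and Snrpn start site in Mb. One region lies across that start site, the other 8 lie on the side of Ndn, and in all 9 the Spretus level is below the C57 level.

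The largest of the 9 regions sat on the imprinting centre. It ran over 2005 bp (60003279 to 60005283) at the shared start of Snurf, Snrpn and Gm38393, with a level of 0.0164 on Spretus and 0.912 on C57. Its length ranked 10th among the 1006 autosomal regions. It covered 134 bases of the Snurf and Snrpn start window, which hold 5 of the window's 7 CpG whole. Its edge in the window falls on a base of another CpG. The window, chr7:60005150-60005449 on the minus strand, is shown because the region of C57 methylation reaches over its start site.
Snrpn: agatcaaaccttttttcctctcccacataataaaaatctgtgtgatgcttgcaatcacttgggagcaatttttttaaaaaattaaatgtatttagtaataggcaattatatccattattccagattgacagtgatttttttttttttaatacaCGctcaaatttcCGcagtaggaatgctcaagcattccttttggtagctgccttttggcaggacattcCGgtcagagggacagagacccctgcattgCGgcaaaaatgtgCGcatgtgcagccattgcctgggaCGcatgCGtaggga
RefSeq gives Snrpn further start sites upstream, the farthest shared with Snhg14. Their windows at 60047929, 60140176 and 60450128 hold 4, 3 and 2 CpG and lie in no listed region. They are about alike, with identical bases in 79.7% to 81.1% of the alignment columns of each pair, gap columns counted. They share 49 bases that occur in 3 of the promoter windows of the genome.
Shared stretch of the upstream starts: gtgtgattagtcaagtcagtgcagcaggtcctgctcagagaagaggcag

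The windows of these upstream starts, that of Snurf and Snrpn, and that of Ndn also hold the palindrome CGCATGCG. It was present in 5 of the 20 distinct start windows of the domain and in 1.87% of all 32851 promoter windows. Of those 5, 3 are the upstream starts, which resemble each other and are not separate occurrences. The motif was chosen after the sequences were seen. The other 3 motifs, also chosen then, like it searched on both strands, were each in 1 gene of the domain. GCATGCGC, bound by NRF1 and overlapping the palindrome by 7 bases, was in Ndn and in 2.71% of windows, AAGATGGCG, bound by YY1, in Ube3a and in 1.40%, and CCGGAAG, of ETS factors, in Mkrn3 and in 8.86%.

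Toward Ndn, 3 regions lay away from the listed genes. The first (60622091 to 60623204) held no gene and had a level of 0.0177 on Spretus and 0.659 on C57. The second (60939735 to 60940304), at 0.291 on Spretus and 0.877 on C57, held the whole start window of the noncoding gene Gm29729. The third (61981618 to 61982658), at 0.146 on Spretus and 0.790 on C57, held Mir344g and the whole start window of the noncoding gene A330076H08Rik. These windows, chr7:60939834-60940133 and chr7:61982306-61982605, both on the minus strand, are shown because they lie wholly inside such a region and are poor in CpG.
Gm29729: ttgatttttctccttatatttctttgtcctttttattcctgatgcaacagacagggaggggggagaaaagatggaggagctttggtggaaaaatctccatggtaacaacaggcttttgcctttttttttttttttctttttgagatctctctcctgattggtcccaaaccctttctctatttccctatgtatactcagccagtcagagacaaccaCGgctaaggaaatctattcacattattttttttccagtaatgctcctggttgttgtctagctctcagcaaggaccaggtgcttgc
A330076H08Rik: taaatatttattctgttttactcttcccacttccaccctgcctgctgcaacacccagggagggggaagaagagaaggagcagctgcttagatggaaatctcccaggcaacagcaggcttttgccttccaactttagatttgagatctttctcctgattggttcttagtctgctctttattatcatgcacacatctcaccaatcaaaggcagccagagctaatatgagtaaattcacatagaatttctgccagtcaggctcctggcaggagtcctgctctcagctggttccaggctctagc
The first holds 1 CpG and the second none, and miR-344g-5p (61982335 to 61982355) lies inside the second. They were identical in 65.9% of their alignment columns, gap columns counted. By the same measure a start window of A230006K03Rik (61311600) was 76.8% identical to that of Gm29729. It shares 28 bases with that of Gm29729 and lies in no listed region.
Shared stretch of Gm29729 and A230006K03Rik: tttttgagatctctctcctgattggtcc

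The other 5 regions lay at Magel2, Mkrn3 and Peg12, which gave 10 reads in all. At Magel2 a region (62376225 to 62376787) stood 192 bp before the gene, with a level of 0.126 on Spretus and 0.819 on C57. Mkrn3 was the nearest listed gene to 3 regions. One lay inside the gene (62418549 to 62419483), at 0.109 on Spretus and 0.877 on C57. Another, 435 bp from it (62420574 to 62421322), was at 0.215 on Spretus and 0.720 on C57. The third, 9788 bp away (62406926 to 62407805), was at 0.117 on Spretus and 0.675 on C57. The start window of Mkrn3, with 15 CpG, falls between the first and the second. In RefSeq these 3 regions and the Magel2 region also overlap another gene, Gm32061. At Peg12 a region of 27 bp (62464690 to 62464716) had a level of 0 on Spretus and 0.686 on C57, and it was the shortest of the 9. Magel2, Mkrn3 and Peg12 thus had listed regions with C57 methylation at or near them while their RNA was near the limit of detection. The relation between the measures cannot be tested at this depth.

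**Figure D5:**
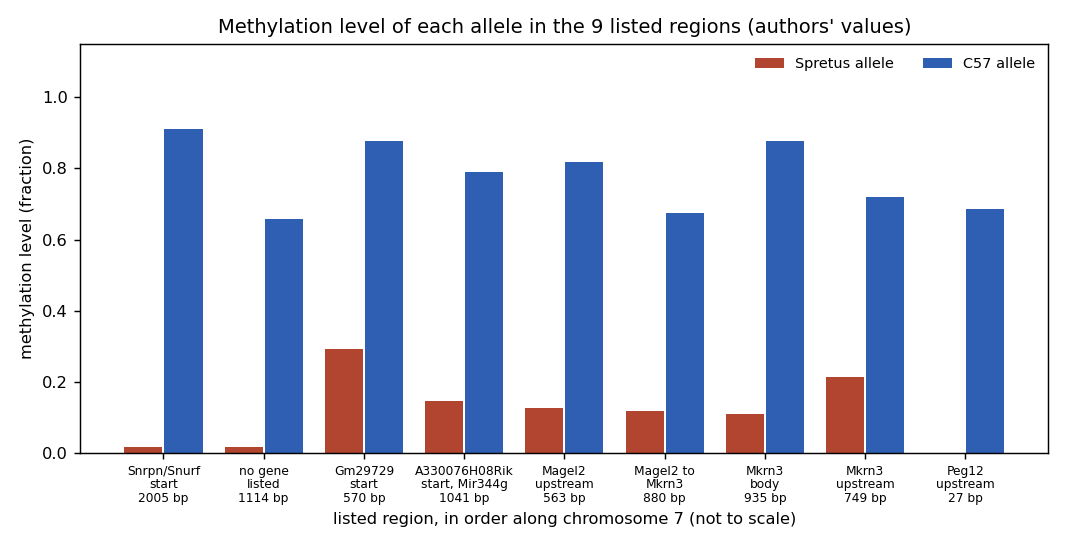
Methylation level (fraction) of the Spretus and the C57 allele and length (bp) of the 9 listed regions in chromosomal order. The Spretus level reaches 0.291 at most and the C57 level is 0.659 or more, and the Peg12 region is the short one at 27 bp.

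The Peg12, Magel2 and Ndn windows are shown for contrast, the first 2 touched by a listed region at their upstream end and the last by none. The window of Peg12 is chr7:62464461-62464760 on the minus strand, that of Magel2 chr7:62376729-62377028 and that of Ndn chr7:62348027-62348326, both on the plus strand.
Peg12: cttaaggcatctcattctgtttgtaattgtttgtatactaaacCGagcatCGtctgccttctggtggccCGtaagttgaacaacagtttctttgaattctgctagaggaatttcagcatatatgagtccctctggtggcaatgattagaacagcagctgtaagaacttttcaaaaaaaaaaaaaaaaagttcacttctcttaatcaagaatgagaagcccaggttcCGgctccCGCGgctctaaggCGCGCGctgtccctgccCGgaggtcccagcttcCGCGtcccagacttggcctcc
Magel2: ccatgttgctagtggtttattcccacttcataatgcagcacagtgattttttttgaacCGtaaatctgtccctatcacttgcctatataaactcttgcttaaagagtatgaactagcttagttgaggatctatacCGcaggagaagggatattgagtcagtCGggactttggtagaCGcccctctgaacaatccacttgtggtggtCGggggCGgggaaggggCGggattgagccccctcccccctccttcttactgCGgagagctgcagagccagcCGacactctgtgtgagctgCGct
Ndn: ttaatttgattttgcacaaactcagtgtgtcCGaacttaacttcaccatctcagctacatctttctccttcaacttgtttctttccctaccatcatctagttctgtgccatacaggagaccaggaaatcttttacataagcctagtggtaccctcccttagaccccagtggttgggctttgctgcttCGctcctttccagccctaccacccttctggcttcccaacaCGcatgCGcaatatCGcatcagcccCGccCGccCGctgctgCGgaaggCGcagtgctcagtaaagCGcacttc
They hold 12, 10 and 11 CpG. The Peg12 region covers bases 45 to 71 of its window with 2 of these CpG whole, and base 45 belongs to another. The dense CpG near the start site lie outside it. Ndn was almost wholly Spretus in its reads without a listed region at its start, and Ube3a and Atp10a had none at theirs.

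Genes whose products work with, or resemble, those of the domain were mostly read about evenly from both alleles. This list of partners and paralogs also held repressors known from imprinting centres, and it shared genes such as Herc2 with the flanking list. Of its 40 symbols 38 were found and 33 tested, with a median log2 ratio of 0.02 beside 0.01 over all tested genes. Of these, 1 was called toward Spretus and 4 toward C57, where 2.32% and 6.23% of all tested genes were called. Atp10d, a flippase relative of Atp10a, had 98 Spretus against 32 C57 reads in library 1, and 27 Spretus against 8 C57 reads in library 2. Snrpd3, which encodes a core Sm protein that works with that of Snrpn, had 42 Spretus against 136 C57 reads in library 1, and 8 Spretus against 45 C57 reads in library 2. Their log2 ratios were 1.78 (SE 0.29, adjusted p = 0.00118) for Atp10d and -1.80 (SE 0.28, adjusted p = 8.13e-04) for Snrpd3 by edgeR.

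The other 3 called toward C57 were the X-linked MAGE genes Maged1, Maged2 and Magee1, relatives of Ndn and Magel2. Maged1 had 4 Spretus against 409 C57 reads in library 1, and 0 Spretus against 178 C57 reads in library 2. Maged2 had 0 Spretus against 73 C57 reads in library 1, and 0 Spretus against 25 C57 reads in library 2, and Magee1 had 0 Spretus against 246 C57 reads and 0 Spretus against 63 C57 reads. They were all 3 X-linked genes tested in the list, while 2 of its 30 autosomal genes were called in either direction. Over all tested genes 746 of 11981 were called toward C57, and over the autosomal ones 352 of 11584. Most tested genes outside the autosomes were thus called toward C57, as these 3 were. All mice carried the Xist mutation, and its part was not tested. Among the partners with the most reads, Atp8a1 had 1082 Spretus against 1293 C57 reads in library 1, and 344 Spretus against 398 C57 reads in library 2. Tmem30a, the flippase subunit, had 730 Spretus against 789 C57 reads in library 1, and 271 Spretus against 291 C57 reads in library 2. Vps35, whose product acts in the recycling pathway of Magel2, had 379 Spretus against 298 C57 reads in library 1, and 125 Spretus against 91 C57 reads in library 2. With the library as a block in edgeR's fit, 3 were called toward Spretus and 5 toward C57, where that fit called 10.8% and 14.2% of all tested genes, the added ones being Vps35 and Mkrn1 toward Spretus and E2f1 toward C57.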

How the data were processed

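RNA-seq was made from ribosome-depleted RNA with a kit that marks strand, per the labels' protocols. Named without roles in the submitters' processing notes are mm10, HTSeq 0.6.0, bedtools 2.2.4, TopHat2 2.0.9 and Cufflinks 2.1.1. Per the file headers, the authors deposited raw counts per gene and allele, and FPKM per locus for both alleles together. The sources used here do not give the allele assignment, the annotation or the use of strand. The authors deposited methylation levels as a fraction per listed region, with no coverage, and whether libraries were pooled is not given.

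Members and gene lists were chosen with earlier results of these data known. Named genes were the 9 members, other genes of the window with at least 10 reads in each library, the nearest tested gene on each side (one of these is not reported here), the called and the 4 most read genes of each list, and the 3 nearest in ratio to Snhg14 and to Ube3a. Genes with at least 10 reads in each library were tested with edgeR 4.0.16 in R 4.3.3 (TMM, allele as the only term, Benjamini-Hochberg adjustment over 11981 genes, threshold 0.05). Residual degrees of freedom were 2. The SE given with a log2 ratio is its absolute value over the square root of the test's F value, and edgeR did not estimate it. It depends on the model. For Snhg14, Gm38393 and Ndn the SE was 0.51, 0.89 and 0.77 by DESeq2. With the library as a block in edgeR it was 0.13, 0.21 and 0.27. The test was checked on simulated data. Both allele columns of a library share its RNA, so libraries pair the columns by design, and deviations from allele means had a correlation of 0.568 over 7773 genes. Gene totals of the libraries had a chi-square of 4.14 per degree of freedom, above sampling noise, so they were kept as 2 samples. Gene coordinates count from 1. Region coordinates are as listed. The start of each of 63 regions that begin in a promoter window falls on a CpG base when counted from 1. Promoter and microRNA sequences are from RefSeq, GRCm38.p6.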

Additional observations from a re-analysis of the deposited data

How the results depend on the processing

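The 6 tested members and Gm25648 and A230006K03Rik kept their direction and side of the threshold in 40 of 40 alternative fits, which were DESeq2 size factors, a shared library total, no filter on low counts, DESeq2 and the library as a block. With the replicate block, 4 members were called toward Spretus and 1 toward C57, as without it. It changed calls among partners and paralogs (3 toward Spretus) and over all tested genes, with 1292 toward Spretus beside 278, and 1707 toward C57 beside 746. All tested genes called toward Spretus numbered 168 with a shared library total, 123 with DESeq2 and 602 without the filter, where 1206 were called toward C57 among 22876 genes. The shared total put the median autosomal log2 ratio at -0.11, beside 0.02. Without the filter Magel2, Mkrn3 and Peg12 had adjusted p = 0.189, 0.541 and 0.723 in edgeR's quasi-likelihood test. Leaving out a library leaves no residual degrees of freedom, so calls could not be counted. Regions assigned to a member numbered 2 by overlap, 5 within 2 kb and 6 within 10 kb. Over its library's median, the FPKM ratio of library 1 over library 2 ran from 0.740 for Ube3a to 2.02 for Mkrn3. The Spretus share differed between libraries for 0 of 11981 genes by Fisher's exact test with Benjamini-Hochberg adjustment, and for 291 at an unadjusted p under 0.05. Depth limits Magel2, Mkrn3 and Peg12, and the C57 side of Snrpn, Gm38393 and A230006K03Rik.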
